A study of Mus musculus with 8 samples.

Results

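The genes of the type I interferon response described here are 41 listed mouse genes, taken as the rows of the deposited liver expression table whose symbol equals a listed name. Of the 41, 39 had a row among the 21358 genes of the table, and 2, Mx1 and Mx2, are not analysed here. Expression was measured by RNA sequencing of liver in 8 libraries, 4 labelled feeding glucose (FG, libraries 93, 94, 95 and 96) and 4 labelled starvation glucose (SG, libraries 101, 103, 104 and 105). Mice of both groups had followed a 22-week schedule of fasting on alternate days, and the series asks how hepatic transcription differs with the metabolic state in which glucose is taken. The labels name no strain, genotype, sex or age, nor the glucose dose or route, and they do not say how long before collection food or glucose was last given. They also do not say that the libraries of a group came from separate animals, so the spread behind each p-value is that between libraries and may be technical.

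Type I interferons are cytokines that almost every nucleated cell can sense through the paired receptor chains IFNAR1 and IFNAR2. The receptor-bound kinases JAK1 and TYK2 phosphorylate STAT proteins, STAT2 among them, which join IRF9 into the complex ISGF3, and this complex binds a DNA element called the ISRE (interferon-stimulated response element) and turns on the interferon-stimulated genes. Their products sense foreign RNA and DNA, degrade or sequester viral RNA, attach the ubiquitin-like protein ISG15 to other proteins, or dampen the signal again. In liver, hepatocytes, Kupffer cells and sinusoidal endothelium all respond to interferon, and many of the genes keep a low basal level without infection.

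Levels are given in FPKM, which scale a gene's fragments by its length and by the counted total of the library. The libraries held 36545128 to 41977438 counted fragments, and the values of the tested interferon genes rested on 58 to 6914 fragments each. Genes that reached 1 FPKM in at least 4 of the 8 libraries were tested, 31 of the 39 interferon genes and 9867 genes of the whole table. Differences are SG minus FG in log2(FPKM + 1), a scale on which low genes appear to change less than they do. Calls were made by limma at an adjusted p below 0.05, and the word fell is kept for called genes. Alb, the hepatocyte product albumin, lay between 36000 and 49900 FPKM in every library, so all 8 carried a strong liver signal.

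In SG some interferon response genes fell and none rose: by limma, 10 of 31 tested genes (32.3%) were called lower, beside 15.6% of all 9867 tested genes. The called genes were Usp18, Dtx3l, Ifit3, Ifi35, Bst2, Isg15, Ifit1, Rtp4, Irf9 and Parp9. No tested member was called higher, beside 3.73% of all tested genes, and none was called higher by limma voom on recovered fragments. At an unadjusted limma p below 0.05, 17 members were lower and none was higher. The share of all tested genes at that unadjusted threshold is not given here, so these counts are read against no background. Fold changes of the 31 genes ran from -1.1 in Usp18 to 0.22 in Irf5. Their median was -0.39, beside a median of -0.135 for all tested genes. Of the 31, 29 were negative, beside 69.9% of all tested genes. In 11 of the 31 genes (35.5%), all FG values lay above all SG values, beside 21.8% of all tested genes. These 11 were the 10 called genes and Ifi27, and for each of them the exact two-sided permutation test gave p = 0.0286, the smallest that 4 against 4 libraries can give.

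On the deposited scale 80.8% of the 1912 calls among all genes were lower in SG. After median-ratio scaling, which centres the genes by construction and moved their median to 0.00586, the share of lower calls was 47.8% and 5.06% of all tested genes were called lower. On that scale 4 interferon genes (12.9%) were called lower, namely Usp18, Ifit3, Dtx3l and Ifi35, and none was called higher. The median of the 31 was -0.23, and 25 were negative, beside 48.9% of all tested genes. Usp18, Ifit3 and Dtx3l were called in each of the 8 fits that left out 1 library. The number called lower in those fits ranged from 5 without FG 93 to 11 without SG 101, and was 6 without SG 104 or without SG 105. Calls among all tested genes, in both directions, were 1912 with every library and 834 without FG 93. They were 2363 without SG 101 and 1036 without SG 104 or without SG 105.

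**Figure D1:**
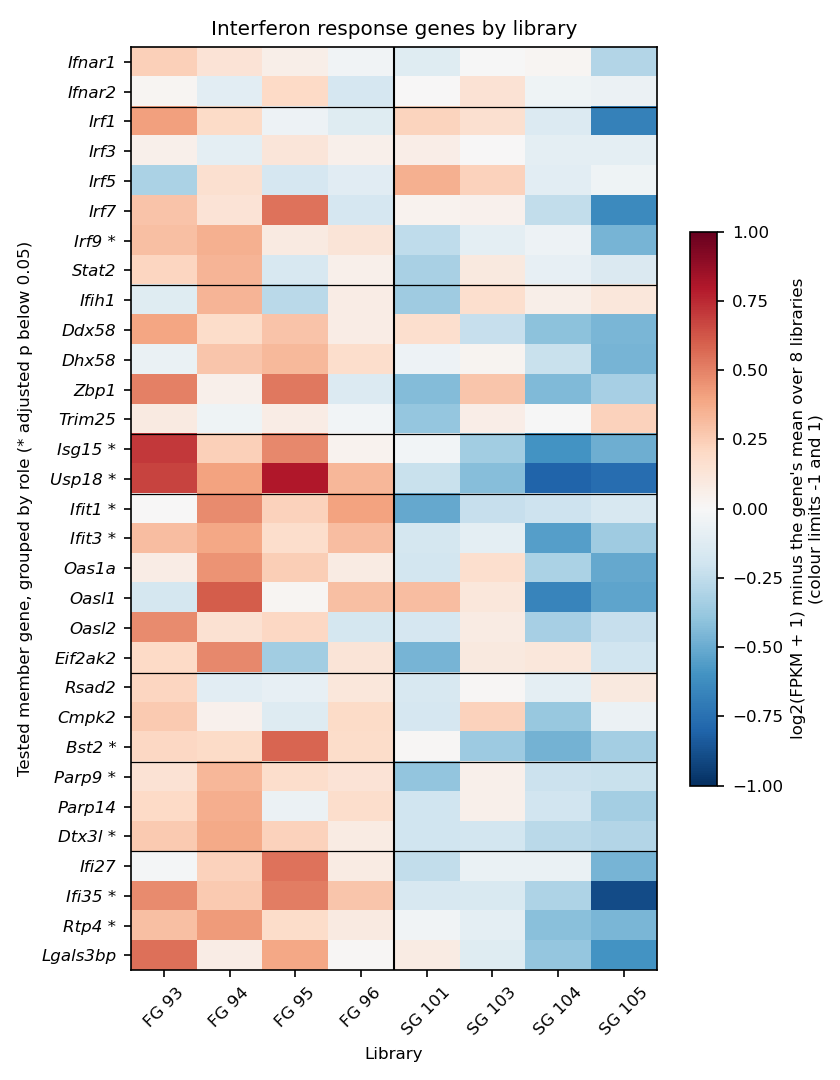
Expression of the 31 tested interferon genes (rows, grouped by role) in the 8 libraries (columns), as log2(FPKM + 1) minus the gene's mean over all libraries, with colour limits of -1 and 1. Red cells (above the mean) predominate in the FG columns and blue cells (below it) in SG 104 and SG 105, where 3 of 31 genes each lay above their mean.

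The libraries differed in how far these genes moved together. In FG 93, 94, 95 and 96, 26, 27, 23 and 23 of the 31 genes lay above their own mean over all libraries. The counts in SG 101, 103, 104 and 105 were 9, 18, 3 and 3. SG 103 thus stood between the groups, and SG 104 and SG 105 were the lowest. The median deviation of the 31 genes from their means was 0.22, 0.24, 0.18 and 0.08 (log2) in the FG libraries and -0.16, 0.02, -0.23 and -0.34 in the SG libraries, while that of all tested genes stayed between -0.11 in SG 105 and 0.12 in FG 93. Within a group the interferon genes were also more variable than the typical gene, with a median coefficient of variation of 17.4% in FG and 19.0% in SG beside 13.2% and 15.5% for all tested genes.

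**Figure D2:**
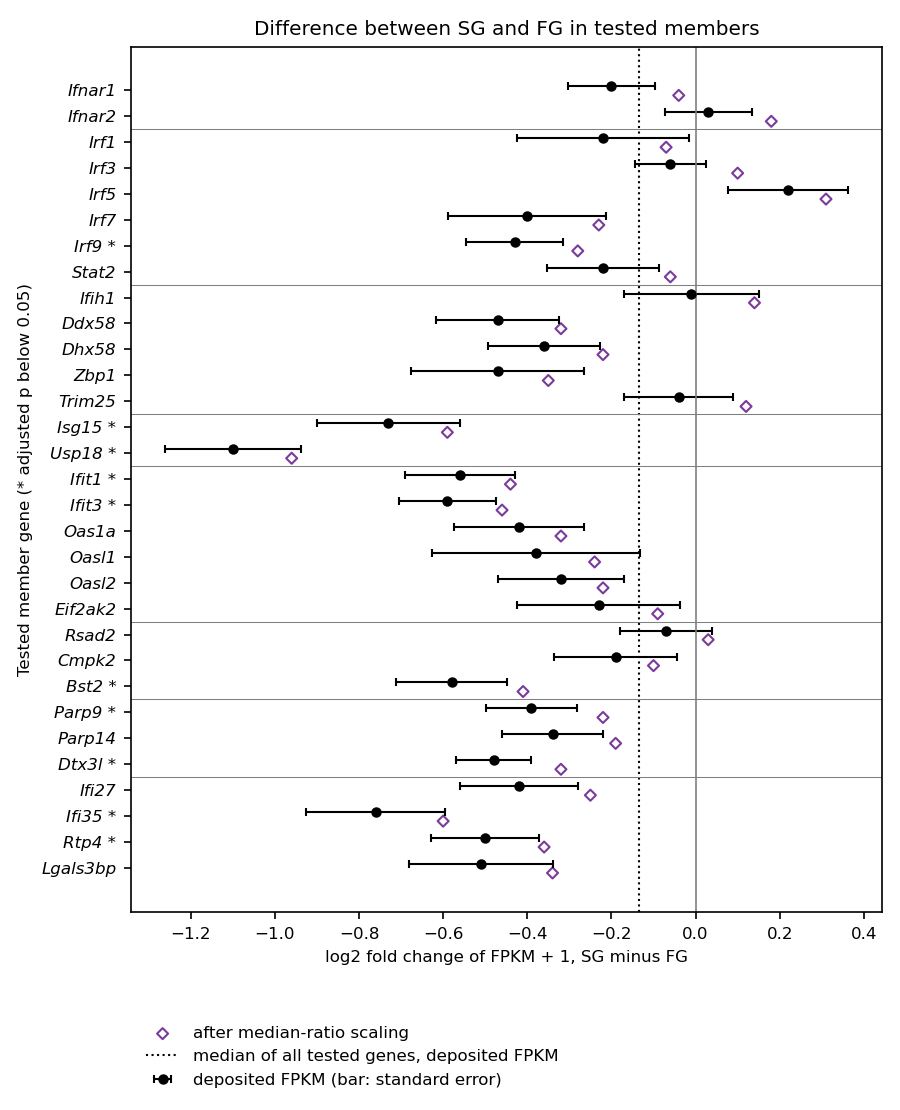
Difference between SG and FG for each tested interferon gene, in log2(FPKM + 1), as black points with limma's standard error, and after median-ratio scaling as open diamonds. The dotted line marks the median of all tested genes at -0.135, and Usp18, Ifi35 and Isg15 lie farthest to its left.

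Of the 10 genes that fell, 7 had a promoter window in RefSeq's table for build GRCm38.p6 (250 bases before to 50 after the start site), and 4 of these held the core of an ISRE. The core searched was GAAANNGAAA, 2 GAAA half-sites 2 bases apart, on either strand; overlapping matches were each counted. The matches of these 4 genes are shown with 40 bases on either side, because they carry the core of the element that ISGF3 binds. Each is written 5′ to 3′ on the strand of the gene, with the matches in capitals. Ifit3 is at chr19:34583333-34583456 (plus strand), Bst2 at chr8:71537547-71537642 (minus strand), Isg15 at chr4:156200835-156200936 (minus strand) and Ifit1 at chr19:34640745-34640853 (plus strand).
Ifit3: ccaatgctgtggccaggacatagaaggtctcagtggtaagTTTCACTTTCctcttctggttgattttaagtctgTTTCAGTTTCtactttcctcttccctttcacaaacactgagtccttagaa
Bst2: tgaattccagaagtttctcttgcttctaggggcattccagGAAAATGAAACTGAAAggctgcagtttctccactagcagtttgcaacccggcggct
Isg15: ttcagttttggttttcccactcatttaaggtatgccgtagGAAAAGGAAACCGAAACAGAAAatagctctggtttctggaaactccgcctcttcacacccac
Ifit1: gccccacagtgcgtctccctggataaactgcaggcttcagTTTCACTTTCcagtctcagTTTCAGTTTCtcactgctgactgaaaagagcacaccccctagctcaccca

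In Isg15 3 overlapping matches formed a single run of 22 bases beginning at position -78 from the start site, and in Bst2 2 matches formed a run of 16 bases beginning at -130. Ifit1 and Ifit3 each carried 2 separate matches on the opposite strand, beginning at -104 and -85 in Ifit1 and at -156 and -122 in Ifit3. Read on that strand, the 2 matches were GAAAGTGAAA and GAAACTGAAA in both genes. The windows of Irf9, Dtx3l and Ifi35 held no match to these letters, and Usp18, Parp9 and Rtp4 had no window in the table.

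Over all 39 interferon genes with a row, 31 had a window and 13 of these (41.94%) held GAAANNGAAA, beside 287 of 8002 tested genes with a window (3.59%) and 1079 of all 27025 genes of the promoter table (3.99%). The motif was found in 4 of 7 called genes, in 6 of 17 tested genes that were not called (Stat2, Ifih1, Ddx58, Oas1a, Eif2ak2 and Rsad2), and in 3 of 7 genes under the expression filter (Ifit3b, Oas1g and Oas3). With the shorter GAAANNGAA the numbers were 4 of 7, 7 of 17 and 4 of 7, beside 8.26% of tested genes. A match describes the letters of these windows and shows no binding.

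**Figure D3:**
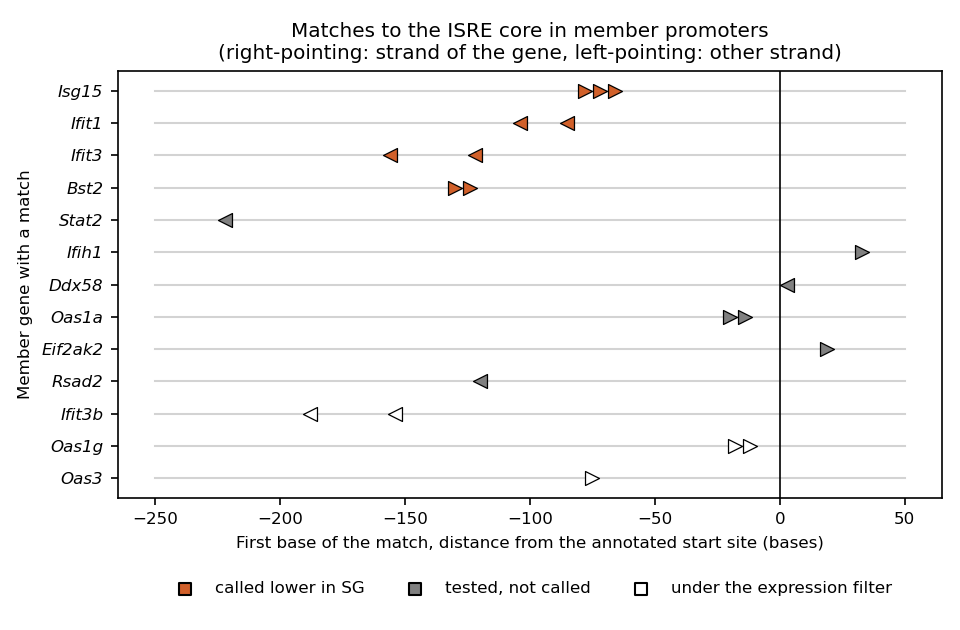
Position of each match to the ISRE core in the 13 interferon genes that hold one, as distance in bases of the first base of the match from the annotated start site; triangles point along or against the strand of the gene. Matches of the 4 called genes (orange) lie between -156 and -66, and those of genes that were not called (grey) or under the expression filter (white) spread from -222 to 33.

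Neither chain of the receptor was called. Ifnar1 (chr16:91485032-91510523) measured 7.95, 7.34, 6.90 and 6.41 FPKM in FG 93, 94, 95 and 96 and 5.97, 6.60, 6.72 and 5.22 FPKM in SG 101, 103, 104 and 105. The groups overlapped, since SG 103 and SG 104 exceeded FG 96, and the difference was -0.20 (SE 0.104, limma adjusted p = 0.211). Ifnar2, the chain that binds interferon with high affinity, measured 8.59, 7.81, 9.85 and 7.41 FPKM in FG and 8.49, 9.43, 8.20 and 8.09 FPKM in SG. Its group means of 8.42 ± 1.08 and 8.55 ± 0.611 FPKM (SD, n = 4 each) were the closest of the pair, with a difference of 0.03 (SE 0.103, limma adjusted p = 0.882) whose sign changed when FG 94, FG 96 or SG 103 was left out. Ifnar2 shares 9.5% of its exon bases with Gm21970 on the same strand.

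Among the transcription factors, 1 of 6 fell, beside 15.6% of all tested genes. Irf9, the DNA-binding part of ISGF3 (chr14:55603985-55610030), measured 11.2, 11.7, 9.57 and 9.87 FPKM in FG and 7.33, 8.28, 8.60 and 6.20 FPKM in SG. Every FG library exceeded every SG library, with SG 105 lowest, and the mean fell from 10.6 ± 1.03 to 7.60 ± 1.08 FPKM (SD, n = 4 each; -0.43, SE 0.116, limma adjusted p = 0.0321). On the median-ratio scale it was no longer called (adjusted p = 0.118), nor was it when FG 93, FG 94, FG 96, SG 103 or SG 105 was left out (up to 0.0878). Of its exon bases, 2.3% are shared with Rnf31 on the same strand.

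Stat2, the partner of Irf9 in that complex, measured 11.8, 12.9, 8.81 and 10.4 FPKM in FG and 7.79, 10.8, 9.36 and 8.95 FPKM in SG. FG 95 and FG 96 lay within the range of the SG libraries, and the difference was -0.22 (SE 0.132, limma adjusted p = 0.259). The regulators that induce interferon itself did not pass the test either. Irf3, which is activated by phosphorylation downstream of nucleic acid sensors, measured 18.4, 16.5, 19.4 and 18.3 FPKM in FG and 18.6, 17.8, 16.5 and 16.5 FPKM in SG, a difference of -0.06 (SE 0.0844, limma adjusted p = 0.633) that became 0.10 after median-ratio scaling. Its groups overlapped, with the lowest FG library no higher than the lowest SG libraries. Irf7, which is itself interferon-induced and amplifies the response, measured 19.7, 17.6, 23.7 and 14.1 FPKM in FG and 16.4, 16.5, 13.3 and 9.93 FPKM in SG. Its FG mean of 18.8 ± 4.02 FPKM and SG mean of 14 ± 3.10 FPKM differed by -0.40 (SE 0.188, limma adjusted p = 0.163), and FG 96 lay below SG 101 and SG 103. Irf1, an activator shared with the interferon gamma response, differed by -0.22 (limma adjusted p = 0.48), and Irf5, a factor of myeloid cells, by 0.22 (limma adjusted p = 0.301).

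**Figure D4:**
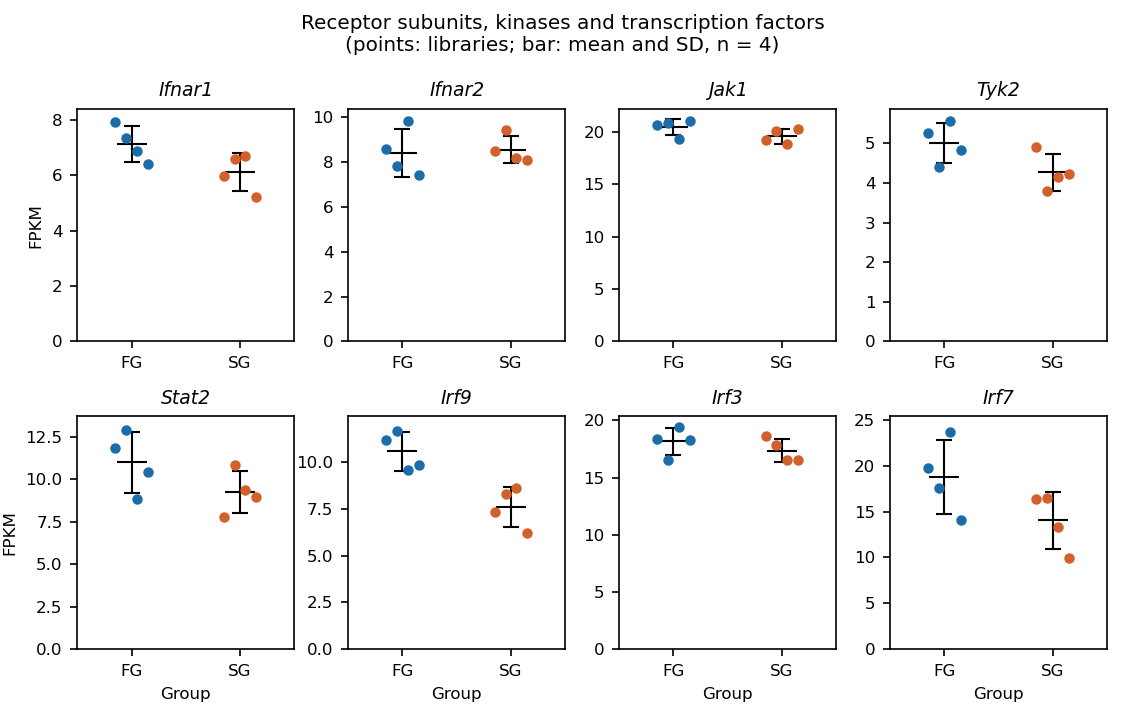
FPKM of the receptor chains Ifnar1 and Ifnar2, the kinases Jak1 and Tyk2 and the transcription factors Stat2, Irf9, Irf3 and Irf7 in each library (points), with mean and SD (bars, n = 4 each). The 4 FG points lie above the 4 SG points for Irf9, and the groups overlap in the other panels.

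The kinases that sit on the receptor are not among the 41 genes and were read from a separate list of 15 genes of receptor signalling. Jak1 measured 19.3 to 21.0 FPKM in FG and 18.8 to 20.3 FPKM in SG, a difference of -0.06 (SE 0.0743, limma adjusted p = 0.608) that became 0.11 after median-ratio scaling. Tyk2 measured 4.41 to 5.56 FPKM in FG and 3.81 to 4.92 FPKM in SG, a difference of -0.19 (SE 0.103, limma adjusted p = 0.214). Neither kinase was called. Of Irf9 and Stat2, Irf9 was called and Stat2 was not; whether their differences differ from each other was not tested.

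Both genes of the ISG15 system fell, beside 15.6% of all tested genes, and Usp18 had the lowest fold change of all 31 genes. USP18 is the protease that removes ISG15 from its targets and, bound to IFNAR2, damps receptor signalling. Usp18 (gene 24110, chr6:121245906-121270917) measured 7.91, 6.38, 8.72 and 6.05 FPKM in FG and 3.79, 3.17, 2.21 and 2.29 FPKM in SG. The lowest FG library lay well above the highest SG library. Usp18 fell from a mean of 7.26 ± 1.26 to 2.86 ± 0.754 FPKM (SD, n = 4 each; -1.1, SE 0.161, limma adjusted p = 0.00397), a ratio of 0.394. After median-ratio scaling the difference was -0.96 (adjusted p = 0.00737), and no omitted library took the adjusted p above 0.0163. Of its annotated exon bases, 4.4% are shared with Gm44148 on the opposite strand, and the sources used here do not say if strand was used in counting.

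Isg15, which encodes the modifier itself (chr4:156199424-156200818, its promoter shown above), measured 8.16, 5.63, 6.84 and 4.76 FPKM in FG and 4.52, 3.40, 2.71 and 3.01 FPKM in SG. FG 96 and SG 101 nearly met, and FG 93 was highest. Isg15 fell from a mean of 6.35 ± 1.48 to 3.41 ± 0.793 FPKM (SD, n = 4 each; -0.73, SE 0.171, limma adjusted p = 0.0206). Median-ratio scaling ended that call (adjusted p = 0.0507), as did leaving out FG 93, FG 95, SG 104 or SG 105 (up to 0.0566). A separate list of the enzymes that attach ISG15 and their relatives held 6 tested genes, of which 1 fell (16.7%, beside 15.6% of all tested genes) and none rose. This was Ube2e2, a ubiquitin-conjugating enzyme, which fell from 9.46 ± 1.11 to 5.87 ± 1.44 FPKM (SD, n = 4 each; -0.63, limma adjusted p = 0.0265, and 0.0704 after median-ratio scaling; lost without FG 93, FG 94, FG 95 or SG 103).

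**Figure D5:**
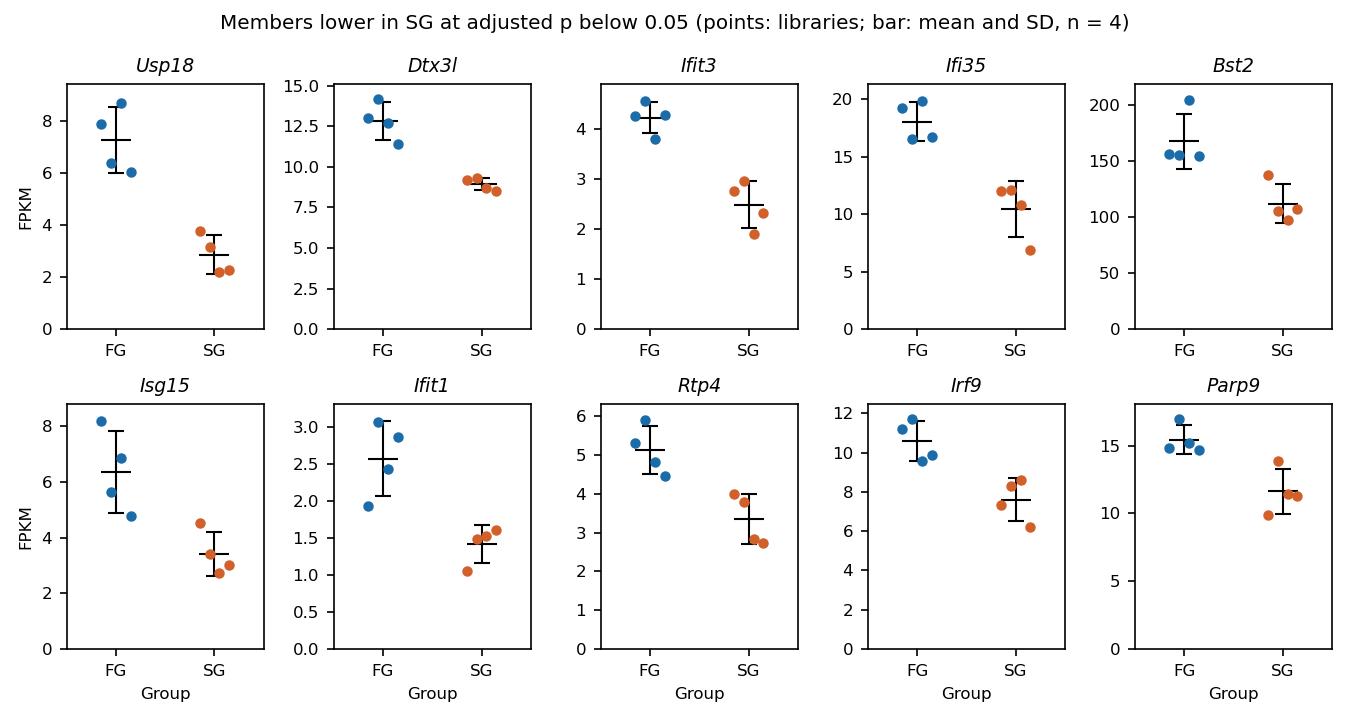
FPKM of the 10 interferon genes called lower in SG, by library (points), with mean and SD (bars, n = 4 each) and axes from 0. In every panel the 4 FG points lie above the 4 SG points; Bst2 lies near 100 to 200 FPKM and Ifit1 near 1 to 3 FPKM.

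The effectors that act on RNA and translation were low in this tissue. Of 12 listed genes 6 were tested, and 2 of these fell, beside 15.6% of all tested genes. Ifit3, a scaffold of IFIT complexes (chr19:34583119-34588982), measured 4.26, 4.56, 3.80 and 4.27 FPKM in FG and 2.75, 2.96, 1.90 and 2.32 FPKM in SG. The FG libraries were tightly grouped and all above SG, and the mean fell from 4.22 ± 0.314 to 2.48 ± 0.473 FPKM (SD, n = 4 each; -0.59, SE 0.116, limma adjusted p = 0.0118, and 0.0371 after median-ratio scaling). Of the 150-base windows of its longest transcript, 18.5% also occur in its close copy Ifit3b, so reads there could have been split between these 2 genes. Ifit1, which binds viral RNA with incompletely methylated caps (chr19:34640889-34650009), measured 1.93, 3.07, 2.44 and 2.86 FPKM in FG and 1.05, 1.49, 1.53 and 1.61 FPKM in SG. FG 93 was the lowest of its group and SG 101 the lowest of all. Ifit1 fell from a mean of 2.58 ± 0.503 to 1.42 ± 0.252 FPKM (SD, n = 4 each; -0.56, SE 0.130, limma adjusted p = 0.0209); the adjusted p was 0.0687 after median-ratio scaling and 0.0509 without FG 96.

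The active enzymes of the oligoadenylate synthetase family make the second messenger that switches on RNase L, and none of the tested genes of the family was called. Oas1a differed by -0.42 (limma adjusted p = 0.0833) and shares 32.4% of its windows with Oas1g, which lay under the expression filter. Oasl1, which in mouse restrains the translation of Irf7, differed by -0.38 (limma adjusted p = 0.302), and Oasl2 by -0.32 (limma adjusted p = 0.151). Oasl1 was the more scattered of these, with 3.07 to 6.01 FPKM in FG and 1.92 to 4.71 FPKM in SG. Eif2ak2, the RNA-activated kinase PKR that stops translation, differed by -0.23 (limma adjusted p = 0.43).

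Bst2 was the most abundant of the interferon genes per length and fell. Its product tetherin holds budding virus particles at the cell surface. Bst2 (chr8:71534255-71537472) measured 156, 155, 204 and 154 FPKM in FG and 137, 105, 97.4 and 107 FPKM in SG. FG 95 stood above the other 3 FG libraries, and SG 101 above the other 3 SG libraries. Bst2 fell from a mean of 167 ± 24.3 to 112 ± 17.3 FPKM (SD, n = 4 each; -0.58, SE 0.132, limma adjusted p = 0.0189). It no longer passed with median-ratio scaling (adjusted p = 0.0927) or with SG 103 or SG 104 left out (up to 0.0531), and still passed with FG 95 left out. Rsad2, which encodes viperin, and its neighbour Cmpk2, a mitochondrial nucleotide kinase, were near 1 FPKM and were not called (-0.07 and -0.19; limma adjusted p = 0.662 and 0.391).

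Of the 3 genes of ADP-ribosylation, 2 fell, beside 15.6% of all tested genes. DTX3L is a ubiquitin ligase that forms a dimer with the ADP-ribosyltransferase PARP9. Dtx3l (chr16:35926515-35939027) measured 13.0, 14.2, 12.7 and 11.4 FPKM in FG and 9.17, 9.28, 8.68 and 8.52 FPKM in SG. The SG libraries were nearly equal and all below FG, and the mean fell from 12.8 ± 1.14 to 8.91 ± 0.368 FPKM (SD, n = 4 each; -0.48, SE 0.0884, limma adjusted p = 0.00972, and 0.0398 after median-ratio scaling). Parp9 (chr16:35938470-35972621) measured 14.8, 17.0, 15.2 and 14.7 FPKM in FG and 9.90, 13.9, 11.4 and 11.3 FPKM in SG. SG 103 came close to the FG libraries. The mean fell from 15.4 ± 1.07 to 11.6 ± 1.66 FPKM (SD, n = 4 each; -0.39, SE 0.109, limma adjusted p = 0.0368), a call that ended with median-ratio scaling (adjusted p = 0.195) and in each fit that left out 1 library other than SG 103 (adjusted p up to 0.0864). Dtx3l and Parp9 overlap head to head on opposite strands over 8.0% and 9.4% of their exon bases, so their values are not fully separate. Parp14, the third gene of this block on chromosome 16, differed by -0.34 (SE 0.121, limma adjusted p = 0.0782).

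Of the 4 tested genes with other or less defined roles, Ifi35 and Rtp4 fell, beside 15.6% of all tested genes. IFI35 is a leucine zipper protein that pairs with NMI. Ifi35 (chr11:101448412-101458701) measured 19.2, 16.5, 19.8 and 16.7 FPKM in FG and 12.0, 12.1, 10.8 and 6.85 FPKM in SG. SG 105 was below the other SG libraries, and all SG values were below FG. The mean fell from 18.1 ± 1.73 to 10.4 ± 2.47 FPKM (SD, n = 4 each; -0.76, SE 0.165, limma adjusted p = 0.0164, and 0.0404 after median-ratio scaling), and the call held in every fit that left out 1 library except that without FG 93 (adjusted p = 0.0511). Of its exon bases, 16.8% are shared with Gm11626 on the opposite strand.

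Rtp4, a chaperone for membrane receptors (chr16:23520219-23614222), measured 5.31, 5.90, 4.82 and 4.46 FPKM in FG and 4.00, 3.80, 2.84 and 2.74 FPKM in SG. FG 96 and SG 101 lay close together at the edge of their groups. The mean fell from 5.12 ± 0.624 to 3.34 ± 0.650 FPKM (SD, n = 4 each; -0.50, SE 0.129, limma adjusted p = 0.0289), and it was not called on the median-ratio scale (adjusted p = 0.0931) or when FG 93, FG 94, FG 95, SG 104 or SG 105 was left out (up to 0.0774). Rtp4 shares 13.9% of its exon bases with Gm45338 on the same strand.

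Ifi27 and Lgals3bp followed Bst2 in abundance per length and did not pass the test. Ifi27, a small hydrophobic interferon-induced protein, measured 40.2, 48.0, 59.8 and 43.1 FPKM in FG and 34.2, 38.9, 38.9 and 29.3 FPKM in SG. All FG values lay above all SG values, with FG 95 highest, and the difference was -0.42 (SE 0.141, limma adjusted p = 0.0659). Lgals3bp, a secreted galectin-binding glycoprotein, measured 48.4, 34.4, 42.9 and 32.9 FPKM in FG and 34.6, 29.9, 24.7 and 21.3 FPKM in SG. SG 101 exceeded FG 94 and FG 96, and the difference was -0.51 (SE 0.171, limma adjusted p = 0.065).

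Of the 5 genes for sensors of foreign nucleic acid and their ligase none was called, beside 15.6% of all tested genes called lower. The median of their differences was -0.36, beside -0.135 for all tested genes. Ddx58, which encodes the RNA sensor RIG-I, measured 6.20 to 7.99 FPKM in FG and 4.00 to 6.69 FPKM in SG (-0.47, SE 0.146, limma adjusted p = 0.0533). Its adjusted p was 0.0482 by limma voom on recovered fragments, 0.182 after median-ratio scaling and 0.202 after quantile normalization. Ddx58 was called in 1 of 8 fits that left out 1 library. Dhx58, the related regulator LGP2, differed by -0.36 (limma adjusted p = 0.0898), and Zbp1, a sensor of Z-form nucleic acids, by -0.47 (limma adjusted p = 0.136). In Zbp1 SG 103 measured 2.90 FPKM while the other SG libraries measured 1.37 to 1.55 FPKM. Ifih1, the long-RNA sensor MDA5, and Trim25, a ubiquitin ligase of the RIG-I route, showed differences near 0 (-0.01 and -0.04; limma adjusted p = 0.978 and 0.832) that became 0.14 and 0.12 after median-ratio scaling.

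Too low to test were 8 interferon genes with a row: Ifit2, Ifit3b, Oas1g, Oas2, Oas3, Isg20, Ifi44 and Xaf1. Their values ran from 0.0618 FPKM for Oas3 in FG 96 to 1.42 FPKM for Xaf1 in FG 94 and rested on 12 to 339 fragments. All 8 had a lower mean in SG than in FG. On the deposited scale 69.9% of all tested genes had a negative fold change, and the share among all genes under the filter is not given here. Isg20, an RNA exonuclease, measured 0.690, 0.599, 0.562 and 0.680 FPKM in FG and 0.381, 0.365, 0.516 and 0.320 FPKM in SG, with every FG value above every SG value. Xaf1, a regulator of apoptosis, had means of 1.1 ± 0.239 FPKM in FG and 0.716 ± 0.140 FPKM in SG (SD, n = 4 each), and the range of each overlapped the other. In Oas2 the means were nearly equal, at 0.776 ± 0.290 and 0.757 ± 0.237 FPKM (SD, n = 4 each).

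Of the 39 genes, 17 lie within 100 kb of another, in 6 blocks, and called genes lay in 2 of these. Over all tested genes 15.6% were called lower. The block of Ifit2, Ifit3, Ifit3b and Ifit1 on chromosome 19 (34550550 to 34650009) held 2 tested genes, both called. The block of Parp14, Dtx3l and Parp9 on chromosome 16 (35831892 to 35972621) held 3 tested genes, of which 2 were called. No gene was called in the receptor block of Ifnar2 and Ifnar1, the pair Rsad2 and Cmpk2, the pair Oasl2 and Oasl1, or the block of Oas2, Oas3, Oas1g and Oas1a, of which only Oas1a was tested.

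Other lists of interferon genes that hold none of the 41 were read in the same way, and in none of them was a gene called higher on the deposited scale. Their shares of lower calls are read against the 15.6% of all tested genes, or 5.06% after median-ratio scaling. Of the interferon ligands and the other receptor chains, 5 of 17 listed genes had a row, 3 were tested and none was called. Of 14 tested genes of receptor signalling 2 fell (14.3%, beside 15.6% of all tested genes). They include Ptpn11, the phosphatase SHP2 (-0.36, limma adjusted p = 0.0405, and 0.203 after median-ratio scaling; the call was kept in 1 of 8 fits that left out 1 library, that without FG 94). None of 9 tested other interferon regulatory factors and partners was called. After median-ratio scaling 1 gene of each of these last lists, Stat3 and Irf2bp2, was called higher, beside 545 of all 9867 tested genes.

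Of 21 tested genes of nucleic acid sensing and its adaptors 6 fell (28.6%, beside 15.6% of all tested genes). After median-ratio scaling 1 did, Tkfc (4.76%, beside 5.06%). Tkfc, known as a triokinase of fructose breakdown as well as a binding partner of MDA5, fell from 334 ± 46.2 to 73.0 ± 22.9 FPKM (SD, n = 4 each; -2.22, limma adjusted p = 0.000683). Irak4, a kinase of Toll-like receptor signalling, fell from 4.08 ± 0.304 to 2.63 ± 0.363 FPKM (SD, n = 4 each; -0.49, limma adjusted p = 0.0152, and 0.0579 after median-ratio scaling). Mavs, the mitochondrial adaptor of RIG-I and MDA5, fell from 33.3 ± 1.29 to 24.9 ± 2.47 FPKM (SD, n = 4 each; -0.41, limma adjusted p = 0.0164, and 0.13 after median-ratio scaling). Its call was lost without FG 93 (limma adjusted p = 0.0516). The count of this list was 2 without FG 93, 3 without SG 104 and 4 to 8 in the other fits that left out 1 library. Calls among all tested genes, in both directions, were 834 without FG 93, 1036 without SG 104 and 1036 to 2363 in those other fits.

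Of 49 tested further interferon-induced genes 9 fell (18.4%, beside 15.6% of all tested genes), with a median difference of -0.20 beside -0.135. After median-ratio scaling 1 did, Ifi27l2b (2.04%, beside 5.06%). Ifi27l2b, a relative of Ifi27, fell from 13.2 ± 4.73 to 3.04 ± 1.11 FPKM (SD, n = 4 each; -1.80, limma adjusted p = 0.0035, and 0.00575 after median-ratio scaling). Adar, the enzyme that edits adenosine in double-stranded RNA, fell from 3.92 ± 0.359 to 2.52 ± 0.430 FPKM (SD, n = 4 each; -0.49, limma adjusted p = 0.019, and 0.0607 after median-ratio scaling). Its call was lost without FG 93, SG 104 or SG 105 (limma adjusted p up to 0.0568). Trim30d fell from 2.25 ± 0.762 to 1.08 ± 0.176 FPKM (SD, n = 4 each; -0.62, limma adjusted p = 0.0314, and 0.0714 after median-ratio scaling). The call of Trim30d was kept in 2 of 8 fits that left out 1 library (limma adjusted p up to 0.0807). The count of this list was 12 without SG 101 and 1 to 5 without any other single library. Calls among all tested genes, in both directions, were 2363 without SG 101 and 834 to 1428 without any other.

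Of 15 tested genes linked to interferon gamma 2 fell (13.3%, beside 15.6% of all tested genes), both immunity-related GTPases that act on the membranes around intracellular pathogens. Both were also called after median-ratio scaling (13.3%, beside 5.06%). Igtp fell from 15.9 ± 2.87 to 7.53 ± 1.18 FPKM (SD, n = 4 each; -0.98, limma adjusted p = 0.00484). Irgm2 fell from 16.6 ± 3.33 to 9.05 ± 1.20 FPKM (SD, n = 4 each; -0.79, limma adjusted p = 0.0105). The count of this list ranged from 2 to 5 when 1 library was left out. It was 5 without FG 93, and 4 without SG 101 or without SG 103. Calls among all tested genes, in both directions, were 834, 2363 and 1087 in these fits, in that order.

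In whole liver, fewer cells of a type and less RNA per cell cannot be told apart, and interferon genes are expressed in several cell types. Calls among the markers are read against the 15.6% of all tested genes called lower and the 3.73% called higher. Summed over 7 markers, sinusoidal endothelium stood at 109 to 129 FPKM in FG and 87.7 to 95.9 FPKM in SG, with 2 of 7 markers, Clec4g and Fcgr2b, called lower. Summed markers of cholangiocytes stood at 21.9 to 27.7 FPKM in FG and 13.0 to 19.1 FPKM in SG, and those of neutrophils at 3.10 to 4.61 and 1.58 to 1.90 FPKM, with the neutrophil receptor gene Cxcr2 below 0.1 FPKM in every library. In these 3 sums all FG libraries lay above all SG libraries, and their part in the result was not tested. The called markers carried much of them: without Clec4g and Fcgr2b the endothelial sum overlapped (28.1 to 36.3 FPKM in FG and 26.6 to 37.5 FPKM in SG), as did the cholangiocyte sum without Spp1, also called lower (2.70 to 11.8 and 1.75 to 3.18 FPKM). The neutrophil sum without S100a9, called lower too, still did not overlap (1.73 to 2.50 and 0.791 to 1.15 FPKM). Within it, S100a8 did not overlap (0.79 to 1.5 FPKM in FG and 0.0698 to 0.407 FPKM in SG). The neutrophil marker Csf3r did (0.546 to 0.73 FPKM in FG and 0.437 to 0.804 FPKM in SG). The summed Kupffer cell markers overlapped, at 231 to 359 FPKM in FG and 198 to 379 FPKM in SG, with 0 of 11 called. SG 101 was the highest SG library for each of these markers. Marco measured 46.7 FPKM there and 4.48 to 7.71 FPKM in the other SG libraries. The summed markers of monocytes and macrophages (65.5 to 112 and 46.4 to 125 FPKM), T and NK cells (1.0 to 2.37 and 1.26 to 3.01 FPKM) and B cells (0.509 to 4.15 and 1.11 to 4.26 FPKM) also overlapped. So did those of stellate cells and fibroblasts (67.0 to 116 and 66.4 to 88.8 FPKM) and hepatocytes (51400 to 61600 and 54200 to 68900 FPKM, with 2 of 8 markers, Apoa1 and Serpina1a, called higher in SG), and the leukocyte gene Ptprc (0.398 to 1.76 and 0.999 to 1.68 FPKM). The markers of plasmacytoid dendritic cells, which make much interferon, summed to 0.267 to 37.4 FPKM in FG and 0.39 to 8.51 FPKM in SG, and the highest sum, in FG 93, was almost all Cox6a2 (37.2 FPKM). Of the others, Ccr9 and Pacsin1 were below 0.1 FPKM in every library, Siglech was at most 0.221 FPKM, and Klk1 reached 4.68 FPKM in FG 94.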

How the data were processed

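Per the labels' protocols, enriched mRNA of mouse liver was sequenced as 150 bp pairs. The submitters' processing notes name HISAT2 (the aligner, per the series text), HTSeq, fastp and DESeq2, and the builds mm10 and GRCm38. The deposited values are FPKM made by the authors; they keep gene length and depth out of the values, but shifts in a few abundant genes move all others. All value columns were matched to a library by label, and 0 were left unmatched.

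Values were taken as log2(FPKM + 1), filtered at 1 FPKM in 4 of 8 libraries, and fitted with limma 3.58.1 in R 4.3.3 (empirical Bayes with a mean-variance trend, no covariates). Two-sided p-values were adjusted (Benjamini-Hochberg) across the 9867 tested genes, with calls below 0.05. For single genes, all 70 ways to split the libraries into 4 and 4 gave an exact two-sided permutation p. Replicate numbers are not shared between the groups, so no block was fitted.

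Fragments per library were worked out from the steps in the FPKM: a whole count was found for 100% of genes within 0.02 fragments, and 500 genes' annotated lengths (GENCODE vM21) fixed the total. Recovered counts summed to within 0.0406% of the totals. The median number of fragments behind a value of 0.9 to 1.1 FPKM was 157 (quartiles 94 and 261).

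The interferon genes, the other gene lists and the marker lists were chosen with earlier results of these data known. Values in every library are printed for called members, for Ifnar1, Ifnar2, Stat2, Irf3, Irf7 and Irf9 and for the 3 most abundant members; of each other list, up to 3 called genes with the smallest p, and Jak1 and Tyk2. A result that the rule would add is not given here. Isg20, Ddx58, Zbp1, Oasl1, Xaf1 and Oas2 were described further after their values were seen. The listed sensing genes Mb21d1 and Tmem173 were found under newer symbols, Cgas and Sting1. Promoter windows are RefSeq's for GRCm38.p6, the build of the files; gene positions and overlaps are on the same build. The alternatives covered the pseudocount (0.1), the filter, scaling, the variance model, library weights, the threshold, each library left out, and, added after seeing the data, limma voom on the recovered fragments.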

Additional observations from a re-analysis of the deposited data

Results flagged for a closer look

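Among the interferon genes with a row and the named genes of the other lists, 104 combinations of a gene and a group of 4 libraries were examined for a library far from the other 3, and 5 were found; chance alone marks about 1 group in 20. Zbp1 measured 2.90 FPKM in SG 103 and 1.37 to 1.55 FPKM in the other SG libraries. Oas1g, under the expression filter, measured 0.518 FPKM in SG 103 and 0.305 to 0.321 FPKM in the others of its group. Bst2 measured 204 FPKM in FG 95, where the other FG libraries lay between 154 and 156 FPKM. Jak1 measured 19.3 FPKM in FG 95, below the 20.7 to 21.0 FPKM of the other FG libraries. Irak4 measured 2.09 FPKM in SG 104, below the 2.78 to 2.86 FPKM of the other SG libraries.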

How the results depend on the processing

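The count of interferon genes called lower, 10 by limma on the deposited scale, was 5 with no filter on low values, 6 among genes with a mean of at least 5 FPKM, 4 after median-ratio scaling, 4 after trimmed-mean scaling, 5 after quantile normalization and 2 at an adjusted p below 0.01. Leaving out 1 library gave 5 to 11. The called genes Isg15, Ifit1, Ifit3 and Rtp4 had means under 5 FPKM and were not in the fit with that filter. The count of all genes called, in both directions, was 1912. It was 1133 with no filter, 1378 with the mean filter, 1044 after median-ratio scaling, 1016 after trimmed-mean scaling and 1078 after quantile normalization. It was 415 at an adjusted p below 0.01, and leaving out 1 library gave 834 to 2363. Lower calls among all tested genes were 1544 on the deposited scale. They were 499, 504 and 616 after median-ratio, trimmed-mean and quantile scaling. The counts of interferon genes called lower and of all genes called stayed within 1.5 times under pseudocount 0.1, no variance trend, library weights and limma voom. With library weights they were 14 and 2748. No interferon gene was called higher under any setting run. Signs changed among genes that were not called: 29 of the 31 interferon genes were negative on the deposited scale and 25 after median-ratio, trimmed-mean or quantile scaling. Of all tested genes, 69.9% were negative on the deposited scale. The shares were 48.9%, 50.1% and 51.8% after median-ratio, trimmed-mean and quantile scaling. With median-ratio scaling the 4 interferon genes that changed sign were Irf3, Ifih1, Trim25 and Rsad2. Ifnar2 ran from -0.027 to 0.096 over the fits that left out 1 library. Irf3 was 0.104, 0.096 and 0.094, and Jak1 0.109, 0.101 and 0.081, after median-ratio, trimmed-mean and quantile scaling. The causes of these changes were not tested, apart from fewer libraries in the leave-one-out fits and fewer genes with the mean filter. Genes near 1 FPKM rest on few fragments, which limits their precision.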
